A study of Homo sapiens with 9 samples.

Results

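The genes described here make up the machinery by which a cell shows peptides on HLA class I molecules: the heavy chains HLA-B, HLA-C, HLA-E and HLA-F, the light chain B2M, the peptide-loading genes TAP1, TAP2 and TAPBP, and the transactivator NLRC5. They were chosen by name for their place in the pathway, with earlier results of these data known. Each was matched to 1 entry by its symbol in the gene table that accompanied the counts. They are 9 of the 60605 genes counted, and 8 of them passed the filter on low counts that left 20655 genes for testing. HLA-F did not pass it.

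RNA sequencing was carried out on KG-1a, an established human acute myeloid leukaemia line with an immature, CD34-expressing phenotype. Groups of 3 libraries each were compared: PRMT2 knockout clone 1, PRMT2 knockout clone 2 and PRMT2 wild-type cells (WT). PRMT2 is a protein arginine methyltransferase, and both knockout lines were made with CRISPR/Cas9. All groups were grown in the same medium and none received a drug. Each knockout line is a single clone, so the effect of the edit and the history of a clone cannot be told apart within a clone. The labels do not state if the WT cells were cloned, or if replicate libraries came from cultures grown apart. If they did not, a p-value here describes spread that may be technical. With 2 clones, no p-value below measures how clones vary.

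Class I molecules are assembled in the endoplasmic reticulum from a heavy chain and the invariant light chain, and they leave for the cell surface once a peptide is bound. The peptides are cut in the cytosol by proteasomes, moved across the membrane by the TAP1-TAP2 transporter and fitted to the heavy chain by tapasin (TAPBP) and its partners. HLA-B and HLA-C present peptides to cytotoxic T cells and also engage receptors of natural killer cells, whereas HLA-E mainly presents peptides from the leaders of other class I chains to NKG2 receptors. NLRC5 is the transactivator of most of these genes. It acts through an S-X-Y module in the promoter, next to an NF-kB site called enhancer A and an interferon-stimulated response element.

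Promoter sequences are shown because the genes were lower together and because their known control elements lie close to the start site. Of the 9 genes, 7 had an entry in the RefSeq promoter table for GRCh38.p14. HLA-E and NLRC5 had none. The lines below give the 250 bases before the start of HLA-B (chr6:31357180-31357429, minus strand), HLA-C (chr6:31272093-31272342, minus strand), HLA-F (chr6:29723184-29723433, plus strand), B2M (chr15:44711267-44711516, plus strand) and TAP1 (chr6:32853705-32853954, minus strand). Each is written 5′ to 3′ on the strand of its gene. Capitals mark letters that match 1 of the motifs searched on both strands.
HLA-B: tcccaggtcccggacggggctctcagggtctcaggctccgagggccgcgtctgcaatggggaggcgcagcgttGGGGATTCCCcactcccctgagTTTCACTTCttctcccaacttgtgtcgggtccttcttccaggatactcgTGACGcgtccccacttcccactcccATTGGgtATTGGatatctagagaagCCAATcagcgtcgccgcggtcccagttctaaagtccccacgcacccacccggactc
HLA-C: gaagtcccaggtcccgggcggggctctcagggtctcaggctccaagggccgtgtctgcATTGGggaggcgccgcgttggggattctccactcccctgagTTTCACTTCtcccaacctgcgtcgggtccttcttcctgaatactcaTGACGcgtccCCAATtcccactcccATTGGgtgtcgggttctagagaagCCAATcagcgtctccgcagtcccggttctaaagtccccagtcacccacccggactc
HLA-F: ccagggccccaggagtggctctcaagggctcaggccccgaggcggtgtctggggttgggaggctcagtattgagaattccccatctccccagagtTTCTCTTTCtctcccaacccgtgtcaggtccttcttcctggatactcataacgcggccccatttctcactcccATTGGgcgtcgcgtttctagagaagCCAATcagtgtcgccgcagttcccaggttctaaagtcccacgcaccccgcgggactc
B2M: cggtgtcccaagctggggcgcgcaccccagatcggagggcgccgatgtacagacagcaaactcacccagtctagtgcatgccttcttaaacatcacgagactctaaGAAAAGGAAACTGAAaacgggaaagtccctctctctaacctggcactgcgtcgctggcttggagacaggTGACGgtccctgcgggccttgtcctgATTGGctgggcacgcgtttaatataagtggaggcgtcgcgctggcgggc
TAP1: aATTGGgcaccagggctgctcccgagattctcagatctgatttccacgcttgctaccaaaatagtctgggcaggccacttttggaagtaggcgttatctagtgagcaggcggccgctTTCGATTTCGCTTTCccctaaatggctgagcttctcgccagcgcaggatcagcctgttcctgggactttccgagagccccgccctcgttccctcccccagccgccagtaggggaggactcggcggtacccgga

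The motifs searched were CCAAT for the Y box, TGACG for the X2 box, GAAANNGAA for the core of the interferon-stimulated response element, GGGGATTCC and GGGANNNCC for NF-kB sites, and TTCNNNGAA for an interferon gamma activated site. N stands for any base, and matches of different motifs may share letters. HLA-B held TGACG from base -106 to -102 and 3 matches to CCAAT, counted from the start site. HLA-C held TGACG from -105 to -101 and matches to CCAAT that begin at -192, -95, -80 and -56. Matches to CCAAT also began at -82 and -57 before HLA-F, and at -249 in the TAP1 sequence shown. B2M held TGACG from -75 to -71 and a single CCAAT match on the opposite strand. TGACG was also found before TAP2, and it occurs in 21.2% of the 35116 promoters of the table, as CCAAT does in 32%.

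The enhancer A letters GGGGATTCC were found before HLA-B, from -177 to -169, and before no other of the 7 genes. They occur in 0.253% of all promoters. The looser GGGANNNCC, which is in 20.1% of promoters, was also found before TAPBP and in a second TAP1 entry. That second TAP1 entry was alone in holding TTCNNNGAA, which is in 6.57% of promoters.

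The interferon-stimulated core GAAANNGAA was found before B2M, HLA-F, TAP1, TAP2 and TAPBP, and is in 6.88% of promoters. With the spacing GAANNGAAA, a form chosen after the letters had been seen, it was found before HLA-B, HLA-C and TAP2 and is in 6.56% of promoters. In either spacing it occurs in 12.4% of promoters. The sequences of HLA-B and HLA-C were 89.0% identical over their alignment, those of HLA-B and HLA-F 79.8%, and those of HLA-C and HLA-F 78.2%. A match is a description of letters and does not show that a factor was bound.

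Between 28006342 and 43149410 read pairs per library were assigned to genes on the matching strand. Levels are given as counts per 1000000 of these pairs (CPM), scaled between libraries with the TMM method. PRMT2 itself stood at 20.7 ± 0.544 CPM in clone 1, 21.2 ± 0.153 CPM in clone 2 and 39.4 ± 0.393 CPM in WT (SD, n = 3 each), a log2 fold change of -0.93 in clone 1 and -0.89 in clone 2. The labels do not say which exon was edited, so a count over the whole gene checks the labels in part. Of the immature myeloid markers, CD34, PTPRC, SPN and MYB were at 259 CPM or more in every library, KIT averaged 6.95 CPM in clone 1, 20.0 CPM in clone 2 and 6.16 CPM in WT, and FLT3 was near 0. The erythroid marker HBB was at 0. The summed B cell markers lay between 0.89 and 1.58 CPM in the libraries, most of it CD79A. The summed monocyte and dendritic markers lay between 8.49 and 10.5 CPM, most of it ITGAX at 7.68 to 9.47 CPM, with CD14 under 0.5 CPM. In 1 library, clone 1 replicate 1, the share of pairs with several mapping positions was 13.33%, whereas the other 8 libraries had 3.86% to 4.51%. Its gene counts also stood further from those of its replicates. The chi-square per degree of freedom was 50.51 and 49.55, against 2.53 to 5.15 for all other pairs of replicates. This library is kept below, and values without it are given for the class I genes and, in the closing section, for the lists and the region. Because these are bulk samples, fewer cells of a type and less RNA per cell cannot be told apart.

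All 8 tested genes were lower in each knockout clone than in WT. The falls were deepest for HLA-B, TAP1 and HLA-C and shallowest for NLRC5, and the mean level of each gene was lower in clone 1 than in clone 2. A gene is said to have risen or fallen where edgeR's quasi-likelihood test gave an adjusted p under 0.05 over all genes tested. It is said to have passed the fold minimum where the log2 fold change was also at least 1 in size.

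HLA-B (ENSG00000234745, chr6:31353872-31367067, minus strand, GRCh38) had 202, 205 and 190 CPM in clone 1, 374, 418 and 405 CPM in clone 2, and 654, 642 and 661 CPM in WT. The 3 groups did not overlap, with clone 1 lowest and WT highest. Its log2 fold change was -1.71 (SE 0.0401, adjusted p = 8.35e-32) in clone 1 and -0.71 (SE 0.0389, adjusted p = 6.68e-19) in clone 2, so that 30.5% of the WT level was left in clone 1 and 61.2% in clone 2. In the mean of both clones it was -1.21 (SE 0.0326, adjusted p = 7.07e-30). In the authors' deposited table, which compares both clones with WT, HLA-B is given at -1.12 with an adjusted p of 0.00413.

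HLA-C (ENSG00000204525, chr6:31268749-31272130, minus strand) had 202, 204 and 193 CPM in clone 1, 249, 286 and 279 CPM in clone 2, and 412, 392 and 430 CPM in WT. Again no library of a clone reached the WT libraries. The log2 fold change was -1.04 (SE 0.0426, adjusted p = 5.96e-19) in clone 1 and -0.60 (SE 0.0420, adjusted p = 5.11e-13) in clone 2. Clone 1 therefore held HLA-B and HLA-C at the same level, 199 CPM each, while WT held 652 CPM of HLA-B against 411 CPM of HLA-C.

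HLA-E (ENSG00000204592, chr6:30489509-30494194, plus strand), the non-classical heavy chain seen by natural killer cells, had 152, 157 and 152 CPM in clone 1, 186, 200 and 202 CPM in clone 2, and 263, 262 and 269 CPM in WT. The 3 groups were separate and tightly spread, and the fall was smaller than that of HLA-B in each clone. It came to -0.78 (SE 0.0319, adjusted p = 2.05e-23) in clone 1 and -0.44 (SE 0.0314, adjusted p = 3.86e-15) in clone 2.

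HLA-F (ENSG00000204642, chr6:29722775-29738528, plus strand), a non-classical chain with restricted surface expression, was close to the limit of detection. It had 0, 1 and 0 counts in clone 1, 0, 0 and 0 counts in clone 2, and 4, 5 and 5 counts in WT. On its own strand every WT library had more counts than any knockout library, at levels where the floor of 3 counts equals 0.07 to 0.107 CPM. With 1 count in clone 1 against 14 in WT, the ratio of WT over clone 1 per counted pair was 11.6, with an exact 95% interval from 1.76 to 488. Clone 2 had 0 counts, and with 3 counts over the group put in as a floor the ratio of WT over clone 2 was 5.13. No interval was computed for this ratio, and the WT count was taken as exact. The interval for clone 1 covers counting error only, and both ratios hold for the stranded counting. Counted without regard to strand, HLA-F had 11 counts in clone 1 (0 to 6 per library), 22 in clone 2 (3 to 14) and 25 in WT (6 to 10), and the groups overlapped. The gene overlaps 3 genes on the other strand, where 10 to 29 counts were recorded per library. In the authors' deposited table HLA-F is given at -0.58 with an adjusted p of 0.717.

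B2M (ENSG00000166710, chr15:44711358-44718851, plus strand), the light chain shared by all class I molecules, had 1002, 1029 and 1017 CPM in clone 1, 1140, 1143 and 1159 CPM in clone 2, and 1538, 1459 and 1577 CPM in WT. The groups did not overlap. The log2 fold change was -0.59 (SE 0.0369, adjusted p = 4.71e-17) in clone 1 and -0.41 (SE 0.0368, adjusted p = 2.76e-12) in clone 2. B2M lies on chromosome 15, outside the MHC region on chromosome 6.

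**Figure D1:**
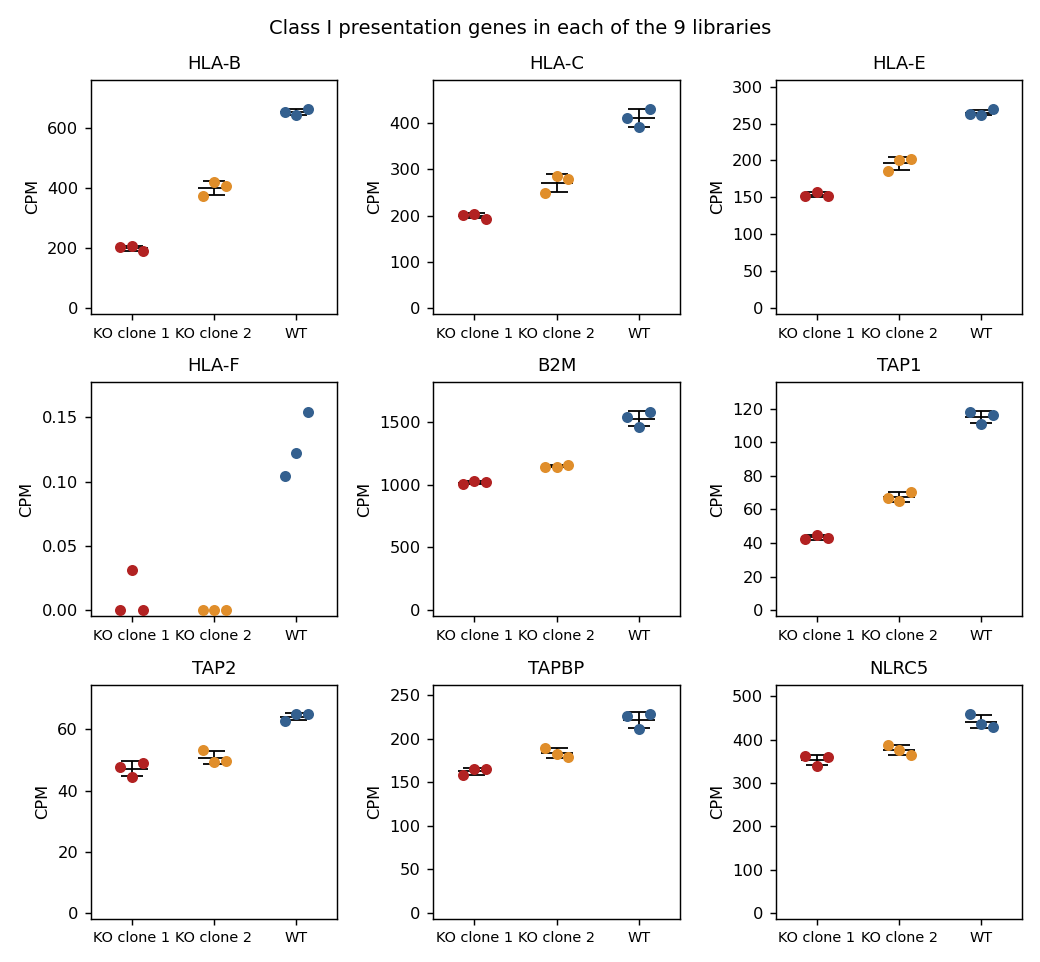
TMM-scaled CPM of the 9 genes (vertical axes, from 0) in the 3 libraries of clone 1, clone 2 and WT; points are libraries and black bars the mean ± SD, which is not drawn for HLA-F because it had 0 to 5 counts. In the 8 tested genes all 6 knockout libraries lie below the WT libraries and the clone 1 libraries lie below those of clone 2.

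The peptide-loading genes fell by unequal amounts. TAP1 (ENSG00000168394, chr6:32845209-32853816, minus strand), a subunit of the peptide transporter, had 42.3, 45.0 and 42.8 CPM in clone 1, 66.9, 65.1 and 70.7 CPM in clone 2, and 118, 111 and 116 CPM in WT. Its 3 groups were as clearly apart as those of HLA-B. The log2 fold change was -1.41 (SE 0.0409, adjusted p = 1.60e-28) in clone 1 and -0.77 (SE 0.0386, adjusted p = 3.38e-20) in clone 2.

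TAP2 (ENSG00000204267, chr6:32821833-32838739, minus strand), the other transporter subunit, had 47.8, 44.4 and 49.1 CPM in clone 1, 53.2, 49.4 and 49.8 CPM in clone 2, and 62.8, 64.9 and 64.9 CPM in WT. Here the clones lay close together and apart from WT, with log2 fold changes of -0.45 (SE 0.0443, adjusted p = 3.55e-11) in clone 1 and -0.34 (SE 0.0431, adjusted p = 2.60e-08) in clone 2. The ratio of TAP1 to TAP2 counts, which does not depend on how libraries are scaled, was 0.886, 1.01 and 0.871 in clone 1, 1.26, 1.32 and 1.42 in clone 2, and 1.88, 1.71 and 1.79 in WT. The ratios of the 3 groups did not overlap. A single TAP1-TAP2 ratio of counts is not a ratio of molecules, because the TAP2 transcript is longer.

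TAPBP (ENSG00000231925, chr6:33299694-33314284, minus strand) encodes tapasin, which bridges the transporter and the empty heavy chain. It had 158, 165 and 165 CPM in clone 1, 190, 182 and 179 CPM in clone 2, and 226, 211 and 228 CPM in WT. The groups were separate, with log2 fold changes of -0.45 (SE 0.0324, adjusted p = 3.00e-15) in clone 1 and -0.27 (SE 0.0320, adjusted p = 3.91e-09) in clone 2.

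NLRC5 (ENSG00000140853, chr16:56989485-57083531, plus strand), the class I transactivator, had 361, 340 and 360 CPM in clone 1, 387, 376 and 365 CPM in clone 2, and 458, 436 and 430 CPM in WT. It kept 80.1% of its WT level in clone 1 and 85.1% in clone 2, more than any other of the 8 genes. The log2 fold changes were -0.32 (SE 0.0369, adjusted p = 1.82e-09) in clone 1 and -0.23 (SE 0.0368, adjusted p = 2.20e-06) in clone 2.

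**Figure D2:**
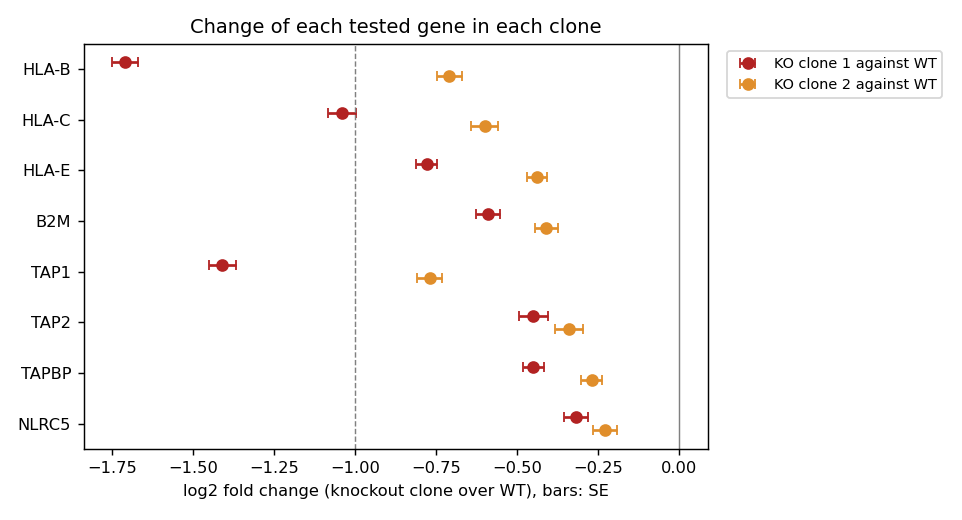
Log2 fold change of the 8 tested genes (horizontal axis, bars are SE) in clone 1 and in clone 2, each against the same 3 WT libraries; the dashed line marks the fold minimum. The values run from -1.71 for HLA-B to -0.32 for NLRC5 in clone 1, and from -0.77 for TAP1 to -0.23 for NLRC5 in clone 2.

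In clone 1 all 8 tested genes fell, where 18.8% of all genes tested fell at the same threshold. HLA-B, HLA-C and TAP1 passed the fold minimum, which 4.98% of all genes did on the lower side. In clone 2 all 8 fell, against 16.1% of all genes, and 0 passed the fold minimum, against 4.13%. In the mean of both clones all 8 fell, against 18.9% of all genes, and HLA-B and TAP1 passed the fold minimum, against 4.53%. The groups did not overlap, with the clone below WT, for all 8 genes in clone 1, where 22.6% of all genes showed this, for all 8 in clone 2, against 21%, and for all 8 with both clones joined, against 13.7%. The median log2 fold change of the 8 genes was -0.68 in clone 1 and -0.42 in clone 2, and that of all genes tested was 0.00 in each. Both comparisons use the same WT libraries, so the likeness of their directions is not counted as support. Because the genes were chosen with earlier results known, the shares of all genes give a scale and are not a test. Without clone 1 replicate 1, HLA-B stood at -1.73, HLA-C at -1.05 and TAP1 at -1.39 in clone 1, and all 8 genes still fell.

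The clones also differed from each other. HLA-B was higher in clone 2 than in clone 1 by 1.00 on the log2 scale (95% interval 0.93 to 1.08, adjusted p = 4.19e-23), TAP1 by 0.64 (interval 0.56 to 0.72, adjusted p = 5.84e-16) and HLA-C by 0.45 (interval 0.36 to 0.53, adjusted p = 1.24e-09). HLA-E was higher by 0.35, TAPBP by 0.18 and B2M by 0.17, and these also passed the test. For TAP2 the difference was 0.11 (interval 0.02 to 0.20, adjusted p = 0.0661), and for NLRC5 it was 0.09 (interval 0.01 to 0.16, adjusted p = 0.0793), and neither passed. At that threshold 6 of the 8 genes were higher in clone 2, against 13.4% of all genes tested. HLA-B alone passed the fold minimum, against 1.58%, and it lay at the minimum itself, so that small changes of method moved it to either side. The libraries of the clones did not overlap for any of the 8 genes, which held for 18.9% of all genes in that direction.

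The make-up of the heavy chain counts differed between the groups. HLA-B supplied 36.3%, 36.2% and 35.5% of the summed counts of HLA-B, HLA-C, HLA-E and HLA-F in clone 1, 46.3%, 46.3% and 45.7% in clone 2, and 49.2%, 49.5% and 48.6% in WT. The 3 groups were separate, with the clone 2 share nearer to WT than to clone 1. HLA-E supplied 27.9% ± 0.503 in clone 1, 22.6% ± 0.436 in clone 2 and 19.9% ± 0.231 in WT (SD, n = 3 each). The ratio of HLA-B to HLA-C counts was 1.00, 1.01 and 0.985 in clone 1, 1.50, 1.46 and 1.45 in clone 2, and 1.59, 1.64 and 1.54 in WT. The values are given without a test, because 3 libraries against 3 cannot reach an exact permutation p under 0.1.

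**Figure D3:**
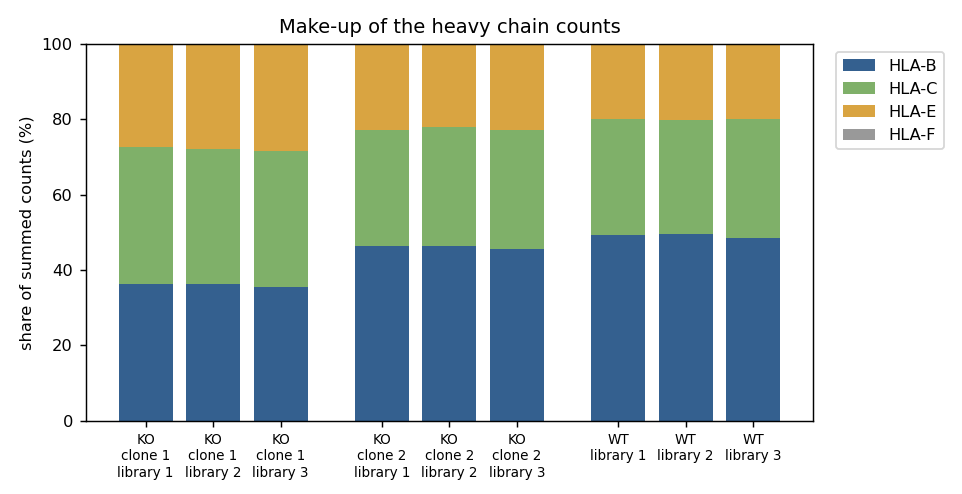
Share of HLA-B, HLA-C, HLA-E and HLA-F in their summed counts (vertical axis, percent) in each library, with HLA-F too rare to be seen. The HLA-B share lies between 35.5% and 36.3% in clone 1, between 45.7% and 46.3% in clone 2 and between 48.6% and 49.5% in WT.

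The 4 heavy chains together came to 556, 566 and 534 CPM in clone 1, 809, 903 and 886 CPM in clone 2, and 1329, 1297 and 1360 CPM in WT. The ratio of light to heavy chains was higher in the clones. Per kilobase of transcript, the B2M level was 3.30, 3.34 and 3.50 times that of the summed heavy chains in clone 1, 2.53, 2.26 and 2.35 times in clone 2, and 2.05, 2.00 and 2.05 times in WT, again without overlap.

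Levels can be ranked across genes only per length of transcript, here the canonical one. In WT, B2M led with 1617 ± 63.3 CPM per kilobase, followed by HLA-B with 425 ± 6.14, HLA-C with 267 ± 12.3 and HLA-E with 104 ± 1.53 CPM per kilobase. NLRC5 and TAPBP came next with 65.1 ± 2.19 and 64.3 ± 2.75 CPM per kilobase, which do not differ beyond their spread. TAP1 followed with 42.9 ± 1.29, TAP2 with 11.4 ± 0.214 and HLA-F with 0.0856 ± 0.0170 CPM per kilobase. In clone 2 the order was kept, and the levels of NLRC5, at 55.4 ± 1.59, and TAPBP, at 53.3 ± 1.66, were again close. In clone 1 HLA-B and HLA-C were level at 129 ± 5.21 and 129 ± 3.89 CPM per kilobase. TAP1 stood at 16.1 ± 0.538 and TAP2 at 8.35 ± 0.424 CPM per kilobase in that clone.

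Class I genes resemble each other closely, and this limits how well their reads are told apart. Pairs that mapped to several places were left out of the gene counts, per the totals in the count files, so pairs shared by near-identical stretches of class I genes are not in these values. How the alleles of KG-1a differ from the reference was not analysed here. HLA-B overlaps the microRNA gene MIR6891 and the pseudogene DHFRP2 on its own strand, which had 0 counts and 0 to 1 counts per library. Counted without regard to strand, HLA-B kept 80.1% to 81.9% of its stranded count in every library, so the loss was alike in all groups. TAP1 overlaps PSMB9 and PSMB8-AS1 on the other strand, and the stranded counting keeps them apart. TAP2 overlaps 1 gene without a symbol on its own strand, which had 0 to 1 counts per library.

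Most of the 9 genes lie in the MHC region, between HLA-F and TAPBP on chromosome 6. In the mean of both clones, 25 of the 131 other tested genes of this stretch (chr6:29722775-33314284) fell and 26 rose, which is 19.1% and 19.8%. On the rest of chromosome 6, 171 of 944 tested genes were lower and 141 were higher, or 18.1% and 14.9%. The median log2 fold change of the other genes of the region was 0.00 in the mean of both clones, 0.03 in clone 1 and -0.03 in clone 2. Values in the region ran from -1.65 to 1.62 in clone 1 and from -1.15 to 2.70 in clone 2, so neighbours of the class I genes were found on both sides of WT.

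**Figure D4:**
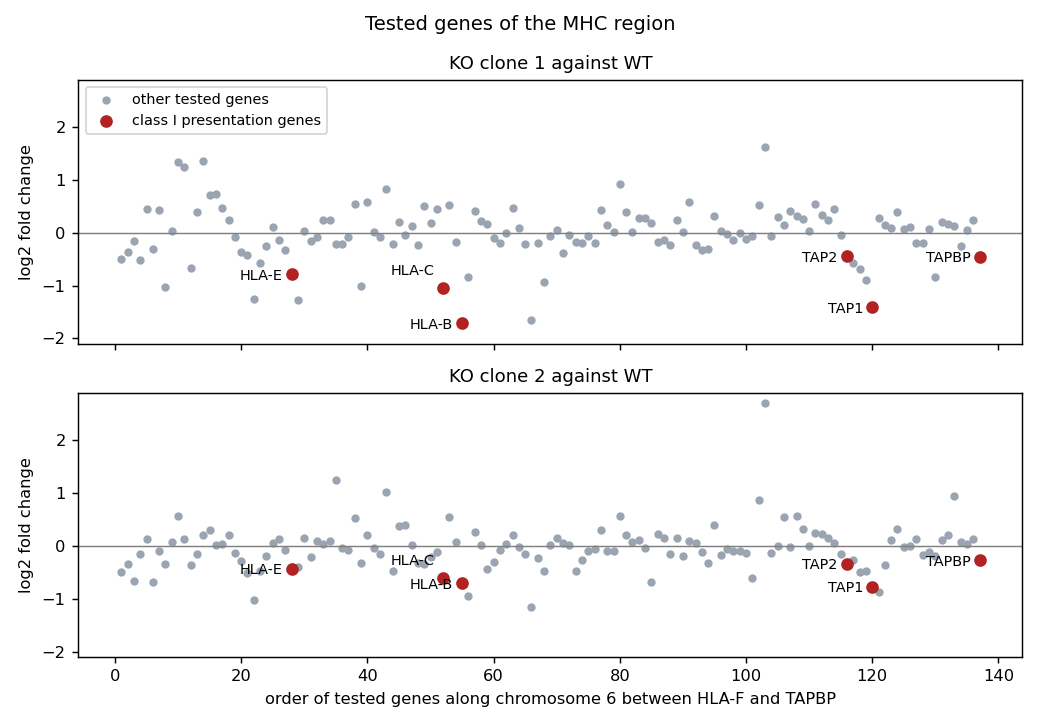
Log2 fold change (vertical axis) of the tested genes of the MHC region in their order on chromosome 6 (horizontal axis), for clone 1 above and clone 2 below; the red points are class I presentation genes. The other genes scatter around 0, with medians of 0.03 in clone 1 and -0.03 in clone 2, while the 6 red points lie below 0 in both panels.

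Other genes of the pathway were examined in 7 lists drawn up by role, also with earlier results of these data known. The shares of all genes set beside them give a scale and are not a test. Of 10 loading cofactors, which are the chaperones and trimming enzymes of the endoplasmic reticulum, 7 fell and 1 rose in the mean of both clones, with a median log2 fold change of -0.19. Of all genes tested, 18.9% fell and 16.4% rose at this threshold. ERAP2, a peptidase that trims peptides, stood at 39.6 ± 0.957 CPM in clone 1, 41.5 ± 0.820 CPM in clone 2 and 56.1 ± 2.34 CPM in WT, a fall of like size in the clones (-0.50 and -0.43). HSPA5, the chaperone BiP, stood at 254 ± 4.18 CPM in clone 1, 350 ± 14.1 CPM in clone 2 and 373 ± 12.3 CPM in WT. Its log2 fold change was -0.55 in clone 1 and -0.09 in clone 2, and the difference between the clones passed the test (0.46, adjusted p = 1.42e-13). PDIA3, the oxidoreductase of the loading complex, changed by -0.35 in clone 1 and -0.09 in clone 2, and the lectin chaperone CALR by -0.27 and -0.15.

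Immunoproteasome subunits fell in the clones, and none of the constitutive subunits that they replace fell. Of 6 genes in the immunoproteasome and activator list, 5 fell and 0 rose in the mean of both clones, with a median of -0.36. The shares of all genes were 18.9% and 16.4%. POMP, an assembly factor, did not pass. PSMB9, a catalytic subunit encoded beside TAP1, stood at 15.1 ± 1.01 CPM in clone 1, 20.0 ± 1.69 CPM in clone 2 and 28.0 ± 1.18 CPM in WT. Its log2 fold change was -0.89 (SE 0.0694) in clone 1 and -0.48 (SE 0.0657) in clone 2. PSMB8 changed by -0.56 and -0.27, and the proteasome activator subunits PSME2 by -0.43 and -0.16 and PSME1 by -0.35 and -0.13. Of the 3 constitutive catalytic subunits, PSMB7 rose by 0.12 in the mean of both clones (adjusted p = 0.0163). It passed in clone 2 (0.18) and not in clone 1 (0.05, adjusted p = 0.445). PSMB5 at 0.03 (interval -0.07 to 0.13) and PSMB6 at -0.02 (interval -0.15 to 0.11) did not pass in the mean of both clones.

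The DNA-binding partners through which NLRC5 acts showed small differences. Of 8 genes of the class I enhanceosome, 2 fell and 0 rose in the mean of both clones, with a median of -0.05. Among all genes tested 18.9% fell and 16.4% rose, so 2 of 8 is near the share that fell. RFXAP, a subunit of the RFX complex, changed by -0.28 (SE 0.0770, adjusted p = 0.00371) and NFYC, a subunit of the Y-box factor, by -0.16 (SE 0.0382, adjusted p = 0.000787). RFXAP passed in clone 1 (-0.37) and not in clone 2 (-0.19, adjusted p = 0.107). NFYC passed in clone 2 (-0.25) and not in clone 1 (-0.08, adjusted p = 0.201). CREB1 at -0.06 and NFYA at -0.05 did not pass in the mean of both clones, although NFYA changed by -0.16 in clone 1 (adjusted p = 0.00191).

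Genes that carry interferon and NF-kB signals to class I promoters were lower in the majority. Of 15 tested, 10 fell and 2 rose in the mean of both clones, against 18.9% and 16.4% of all genes. The median was -0.22, and 1 further gene of the list was not tested for low counts. IRF1, which binds interferon-stimulated elements, stood at 62.4 ± 3.20 CPM in clone 1, 80.5 ± 2.00 CPM in clone 2 and 108 ± 3.56 CPM in WT, with changes of -0.79 and -0.43. The interferon gamma receptor chain IFNGR2 changed by -0.44 and -0.29. The kinase JAK1 changed by -0.22 in clone 1 and -0.23 in clone 2, with no difference between the clones past the test (-0.02, interval -0.08 to 0.05).

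The list of repressors and turnover factors had no common direction. In the mean of both clones 3 of 10 tested genes were lower and 3 higher, with a median of -0.01. Of all genes, 18.9% were lower and 16.4% higher. SOCS1, a feedback inhibitor of JAK kinases that interferon itself induces, stood at 5.27 ± 0.609 CPM in clone 1, 16.3 ± 0.759 CPM in clone 2 and 31.5 ± 2.78 CPM in WT. Its log2 fold change was -2.57 (SE 0.0845) in clone 1 and -0.95 (SE 0.0709) in clone 2. SOCS3, a related inhibitor, stood at 9.75 ± 0.430 CPM in clone 1, 23.4 ± 0.894 CPM in clone 2 and 23.0 ± 1.05 CPM in WT. It fell in clone 1 (-1.24, SE 0.0710) and stood at 0.02 in clone 2 (interval -0.10 to 0.14), and the difference between the clones passed the test (1.26, adjusted p = 5.01e-18). EED, a subunit of the Polycomb complex PRC2 that can silence class I genes, rose by 0.34 in clone 1 and 0.27 in clone 2. MARCHF9, a ubiquitin ligase that can act on class I molecules, changed by -0.77 and -0.66 at levels of 2.88 ± 0.282 CPM in clone 1, 3.10 ± 0.170 CPM in clone 2 and 4.91 ± 0.264 CPM in WT.

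**Figure D5:**
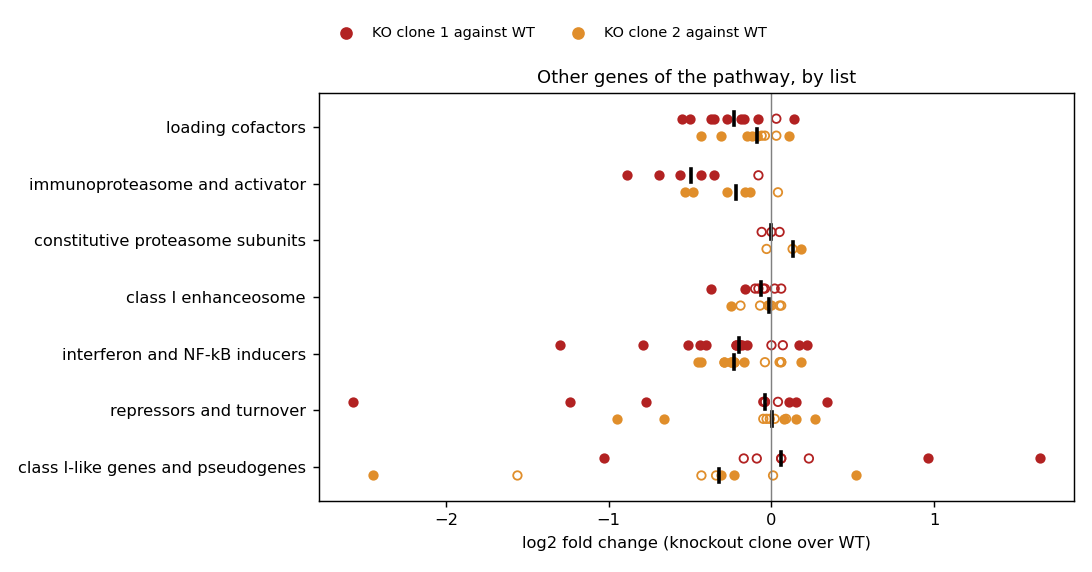
Log2 fold change (horizontal axis) of each tested gene of the 7 pathway lists in clone 1 and clone 2 against WT; filled points passed the adjusted threshold, open points did not, and black marks are list medians. The immunoproteasome list has its medians at -0.50 in clone 1 and -0.22 in clone 2, and the constitutive subunits at 0.00 and 0.13.

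Of 16 class I-like genes and pseudogenes, 8 were tested, and in the mean of both clones 3 fell and 1 rose. The shares of all genes tested were 18.9% and 16.4%. HLA-H, a class I pseudogene, stood at 2.21 ± 0.267 CPM in clone 1, 3.60 ± 0.0381 CPM in clone 2 and 4.57 ± 0.771 CPM in WT. It fell in clone 1 (-1.03, adjusted p = 3.11e-07), and its value in clone 2 was -0.34 (adjusted p = 0.0545). FCGRT, the class I-like Fc receptor that also pairs with B2M, went the other way at low levels, with 2.38 ± 0.317 CPM in clone 1, 1.76 ± 0.320 CPM in clone 2 and 1.21 ± 0.335 CPM in WT, a rise of 0.74 in the mean of both clones (adjusted p = 0.00101). MICB, a stress ligand of natural killer cells that does not bind B2M, changed by -0.20 in the mean of both clones. It passed in clone 2 (-0.31) and not in clone 1 (-0.09, adjusted p = 0.389). CD1A averaged 0.297 CPM in clone 1, 0.0570 CPM in clone 2 and 0.330 CPM in WT.

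Markers of T and NK cells were also lower in the clones. Their summed level per library was 235 to 243 CPM in clone 1 and 292 to 305 CPM in clone 2. In WT it was 508 to 535 CPM. All 5 of them fell in each clone, against 18.8% of all genes in clone 1 and 16.1% in clone 2. This count includes CD8A, which had at most 0.707 CPM in any library and may have passed the filter through WT alone. The smallest change was that of NCAM1, at 55.8 CPM in clone 1, 54.9 CPM in clone 2 and 62.8 CPM in WT. CD3D stood at 119 CPM in clone 1, 149 CPM in clone 2 and 290 CPM in WT, and CD8A at 0 CPM in clone 1, 0.239 CPM in clone 2 and 0.546 CPM in WT. The summed myeloid markers lay between 2430 and 2500 CPM in clone 1, 2410 and 2480 CPM in clone 2, and 2390 and 2430 CPM in WT. The part of these markers in the class I result was not tested.

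Genes whose pattern was most like that of a class I gene were found by the root mean square difference of gene-centred log2 CPM over the 9 libraries, among 10880 genes with a symbol and at least 5 CPM in their highest group. For HLA-B these were TBC1D16 (0.0771), SOGA1 (0.0812), SIGLEC6 (0.0894) and NFIX (0.0934), and TAP1 came at rank 18 with 0.170. For TAP1 they included APOL6 (0.0625), EPSTI1 (0.0639) and OSM (0.0861), with HLA-C at rank 49 and HLA-B at rank 57. For NLRC5 they were GTPBP2 (0.0241), FSD1L (0.0315), TRAF7 (0.0337) and CLSTN3 (0.0351), with TAP2 at rank 217, TAPBP at rank 272 and HLA-B at rank 10512. The measure takes in the size of a change, so this rank of HLA-B follows from its far deeper fall in clone 1. Both HLA-B and NLRC5 had their lowest mean level in clone 1 and their highest in WT.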

How the data were processed

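The members and gene lists were chosen with earlier results of these data known. Per the labels, total RNA was sequenced as read pairs, and per the series text reads were aligned to GRCh38 with STAR in 2-pass mode; the versions and the annotation are not given in the sources used here. The authors deposited raw counts per gene for each library, in 3 countings (without strand and for each strand). The stranded counting in column 4 was used, which held 92.03% to 92.31% of stranded pairs. Between 70.41% and 74.07% of pairs were assigned to no gene there and stayed out of library sizes. The authors also deposited a table of log2 fold changes and adjusted p-values for both clones against WT, from DESeq2 per the series text. The series text names apeglm shrinkage, but each fold change in that table divided by its standard error gives the test statistic listed there, as unshrunken values would, so the form of the deposited fold changes is uncertain. Its 18 per-sample columns were not used.

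Counts of all 9 libraries were fitted with edgeR 4.0.16 (R 4.3.3), with TMM factors, filterByExpr, robust quasi-likelihood dispersion and 1 coefficient per group. The 4 contrasts were tested and p-values were adjusted by Benjamini-Hochberg over all 20655 genes tested. Standard errors were taken from the F statistic, and 95% intervals are 1.96 SE to each side. DESeq2 1.42.0, limma-voom 3.58.1, other scalings and filters, fits of 2 groups, a replicate block and leaving out each library were the alternatives. No set test was run. Positions and canonical transcript lengths came from GENCODE 44, in which 60463 of 60605 gene IDs were found. Beside the 9 genes and PRMT2, the text names up to 4 genes per list by smallest adjusted p in the mean of both clones, and the 4 genes most like HLA-B, TAP1 and NLRC5; POMP, CD3D, CD8A and the other markers were named after their values were seen. Some genes that this rule selects are not reported here. Promoters came from RefSeq (GRCh38.p14). A comparison of protein sequences was planned and not run. Same-numbered libraries were not treated as paired.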

Additional observations from a re-analysis of the deposited data

Results flagged for a closer look

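The level differed between the clones for 6 of the 8 tested genes, by edgeR's test of clone 2 against clone 1. On the log2 scale HLA-B was higher in clone 2 by 1.00, TAP1 by 0.64, HLA-C by 0.45, HLA-E by 0.35, TAPBP by 0.18 and B2M by 0.17, in 3 of 3 libraries each. All 6 were lower than WT in both clones, so the clones differed in the size and not in the direction of the change. What sets the clones apart was not tested.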

How the results depend on the processing

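Over 17 alternative settings, the 8 tested genes gave 544 values in the 4 contrasts. Of these, 540 kept their direction and their side of the adjusted threshold, 0 reversed, 0 lost a call and 4 gained one, all between the clones. NLRC5 gained it with limma-voom (adjusted p = 0.041) and without KO clone 1 replicate 1 (0.0313), and TAP2 without a filter on low counts (0.0497) and without KO clone 1 replicate 3 (0.0469), in ranges over all settings of 0.0313 to 0.32 for NLRC5 and 0.0469 to 0.36 for TAP2. The number of genes higher in clone 2 past the fold minimum was 1 (HLA-B) and became 0 with counts without regard to strand and with library totals only. Leaving out 1 library gave 0 to 1, with 0 without KO clone 1 replicate 3, KO clone 2 replicate 2 or KO clone 2 replicate 3, because HLA-B then stood between 0.97 and 0.99. The HLA-B share of heavy chain counts was 31.5% in clone 1, 40.8% in clone 2 and 43.9% in WT with counts without regard to strand, and 40.6% in clone 1, 50.7% in clone 2 and 53.4% in WT after division by transcript length. The order of the groups was the same. Counting without regard to strand gave 6 lower loading cofactors in place of 7 in the mean of both clones. It gave 9 lower interferon and NF-kB genes in place of 10, and the other lists kept their number of lower genes. When both clones were pooled as 1 group, the adjusted p of HLA-B was 0.0419 and its change -1.12.

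The labels give replicate numbers but no shared culture or day. Deviations of same-numbered libraries correlated between -0.014 and 0.012, so the numbers were not taken to pair the samples. With the replicate block all 8 genes fell in each clone, with HLA-B at -1.71 in clone 1 and -0.71 in clone 2, and the counts past the fold minimum were 3 in clone 1 and 0 in clone 2. HLA-F, with 0 to 5 stranded counts per library, was not tested. Leaving out KO clone 1 replicate 1 from the lists, markers and region was added after the data were seen. In the mean of both clones, each list kept its number of lower genes, the region had 26 lower in place of 25, and all 5 T and NK markers were lower. The interferon and NF-kB list had 1 higher gene there in place of 2. In clone 1, 7 loading cofactors in place of 8 and 9 interferon and NF-kB genes in place of 10 were lower. The region had 25 lower genes in place of 26 in clone 1, and 23 higher in place of 28. Every named list gene past the adjusted threshold in clone 1 or in the mean of both clones stayed past it in the same direction. PSMB6, not past it in either, was at 0.02 in clone 1 in place of 0.00. Between the clones, PSMB7 (adjusted p = 0.0677) and IFNGR2 (0.0962) no longer passed, and 9 region genes in place of 16 were lower in clone 2.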
